A study of Mus musculus with 12 samples.

Results

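Of the 12 RNA libraries of mouse mammary gland, 6 carried RNA of B cells and of other lymph node cells and 6 carried little or none. The 6 marked libraries were Met-Met 1, Met-Met 3, Met 4, Control 1, Control 2 and Control 3, and the 6 unmarked ones were Met-Met 2, Met-Met 4, Met 1, Met 2, Met 3 and Control 4. The split follows the measured levels of Cd22, Fcer2a, Cd3g and Ccl21a, not a label, so every difference between marked and unmarked libraries is given as a description without a test. Each diet group gave 4 libraries, made from the 4th inguinal gland of outbred ICR mice on day 17 of pregnancy. In the Met-Met and Met groups, dams ate a diet deficient in methionine from day 0 of pregnancy and received intraperitoneal methionine amounting to 35% of that in the control diet. In the Met-Met group, 25% of the injected amino acid was supplied as the dipeptide methionyl-methionine. Beyond naming the control diet, the labels do not describe treatment of the Control group, so amount of methionine, diet and injection cannot be told apart in comparisons with Control. They do not say whether libraries come from different mice, so the spread behind the p-values may be technical.

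The inguinal lymph node lies within the fat pad of this gland, so a dissected gland can be taken with or without it. In a node, B cells gather in follicles around stromal and follicular dendritic cells that make the chemokine Cxcl13, and T cells gather in zones whose stroma makes Ccl21 and Ccl19. Lymphocytes enter through high endothelial venules, and macrophages line the sinuses through which lymph flows. Levels below are scaled FPKM (fragments per kilobase and sequencing depth, divided by 1 factor per library). Differences are between log2(scaled FPKM + 1) values, marked minus unmarked with diet group as a covariate and with their standard error (SE). On this scale, differences of low genes come out too small. Read numbers are not given, so depth and the precision of low values are unknown.

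The gland's own RNA was present in both sets. Csn2, which encodes beta-casein, ranged over 24655, 45889 and 60833 scaled FPKM in marked libraries (lowest, median, highest) and over 42927, 56811 and 89002 in unmarked ones. Krt14, a keratin of myoepithelial cells, ranged over 21.0, 29.6 and 35.2 FPKM in marked and over 21.97, 26.4 and 36.3 in unmarked libraries, and both sets overlapped. Summed FPKM as deposited was 481636 to 554544 in marked and 527780 to 617586 in unmarked libraries, and 11477 to 12278 against 11027 to 11715 genes reached 1 FPKM as deposited. Met 2, an unmarked library, stood apart in skeletal muscle RNA (316.7 summed FPKM over 11 genes, against at most 8.19 in any other library) and in skin keratinocyte RNA (60.1 over 8 genes, against at most 22.2).

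The marker genes differed between the 2 sets by construction. Ccl21a, the chemokine of T cell zones, stood at 3.77, 13.0 and 17.0 FPKM in marked libraries and at 0, 0.0559 and 0.927 in unmarked ones, where 3 of 6 listed it at 0 (difference 3.01, SE 0.20). Cxcl13 stood at 4.49, 7.96 and 16.0 FPKM in marked and at 0.149, 1.31 and 3.17 in unmarked libraries (2.06, SE 0.41). The lowest marked library was above the highest unmarked one for both chemokines. Cd22, an inhibitory receptor of B cells, was at 0.969, 2.99 and 6.56 FPKM in marked and at 0.0924, 0.116 and 0.161 in unmarked libraries. Fcer2a, the low-affinity IgE receptor of follicular B cells, was at 0.677, 3.44 and 6.82 FPKM against 0, 0.0801 and 0.131. Cd3g, a chain of the T cell receptor complex, was at 3.69, 10.3 and 17.7 FPKM against 0.668, 0.881 and 1.61. For each of these genes the 3 marked Control libraries were the highest marked ones except Cxcl13, where Met 4 (9.13 FPKM) was above Control 1 (6.80).

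The promoters of these 5 genes are shown because these genes mark the split of the libraries and were high or low together. They run from 250 bases before to 50 bases after the start of the gene in RefSeq on build GRCm38.p6, 5′ to 3′ on the gene's strand. Capitals mark matches of the NF-kB type motif, GGG and CC parted by 5 bases of any kind, on either strand.
Ccl21a (chr4:42773942-42774241, minus strand): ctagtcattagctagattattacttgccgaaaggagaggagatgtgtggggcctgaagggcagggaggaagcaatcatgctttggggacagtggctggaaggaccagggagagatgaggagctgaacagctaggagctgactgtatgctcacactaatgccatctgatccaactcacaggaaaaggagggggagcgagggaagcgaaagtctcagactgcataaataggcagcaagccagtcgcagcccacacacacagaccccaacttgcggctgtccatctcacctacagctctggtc
Cxcl13 (chr5:95956689-95956988, plus strand): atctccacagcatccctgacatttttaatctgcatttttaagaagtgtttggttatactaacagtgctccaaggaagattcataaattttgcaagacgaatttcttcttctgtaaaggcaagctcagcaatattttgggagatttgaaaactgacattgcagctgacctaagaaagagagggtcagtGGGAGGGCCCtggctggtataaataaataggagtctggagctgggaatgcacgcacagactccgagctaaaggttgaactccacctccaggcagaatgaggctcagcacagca
Cd22 (chr7:30878979-30879278, minus strand): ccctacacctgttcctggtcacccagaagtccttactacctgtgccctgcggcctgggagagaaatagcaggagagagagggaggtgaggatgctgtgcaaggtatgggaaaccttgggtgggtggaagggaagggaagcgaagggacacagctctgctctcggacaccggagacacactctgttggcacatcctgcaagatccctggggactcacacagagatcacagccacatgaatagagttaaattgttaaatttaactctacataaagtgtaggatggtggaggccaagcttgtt
Fcer2a (chr8:3694125-3694424, minus strand): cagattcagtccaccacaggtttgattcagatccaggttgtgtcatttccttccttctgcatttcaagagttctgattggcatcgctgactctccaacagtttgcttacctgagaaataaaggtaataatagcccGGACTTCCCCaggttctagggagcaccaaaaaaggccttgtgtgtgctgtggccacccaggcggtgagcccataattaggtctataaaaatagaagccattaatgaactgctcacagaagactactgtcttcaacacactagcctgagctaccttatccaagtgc
Cd3g (chr9:44980382-44980681, minus strand): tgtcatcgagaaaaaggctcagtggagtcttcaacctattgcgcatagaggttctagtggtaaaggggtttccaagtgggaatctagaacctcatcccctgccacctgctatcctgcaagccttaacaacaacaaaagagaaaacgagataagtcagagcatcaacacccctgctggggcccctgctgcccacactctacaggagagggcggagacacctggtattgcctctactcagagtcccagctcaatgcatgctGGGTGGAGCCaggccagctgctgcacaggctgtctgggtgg
The motif began 63 bases before the start of Cxcl13, 115 before that of Fcer2a and 9 after that of Cd3g, and these letters were not in the windows of Ccl21a and Cd22. Neither the octamer motif ATGCAAAT nor the Ets type motif GAGGAAGT was in any of the 5 windows, so no motifs overlapped. A promoter was found for 80 of the 109 genes described next as called higher. On either strand, 44 of the 80 (55%) held the NF-kB type motif, against 68.5% of 9124 tested genes with a promoter. The octamer was in 3 (3.75%, against 1.33%) and the Ets type motif in 8 (10%, against 3.16%). A match describes letters only, and promoters were taken as 1 per gene.

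**Figure D1:**
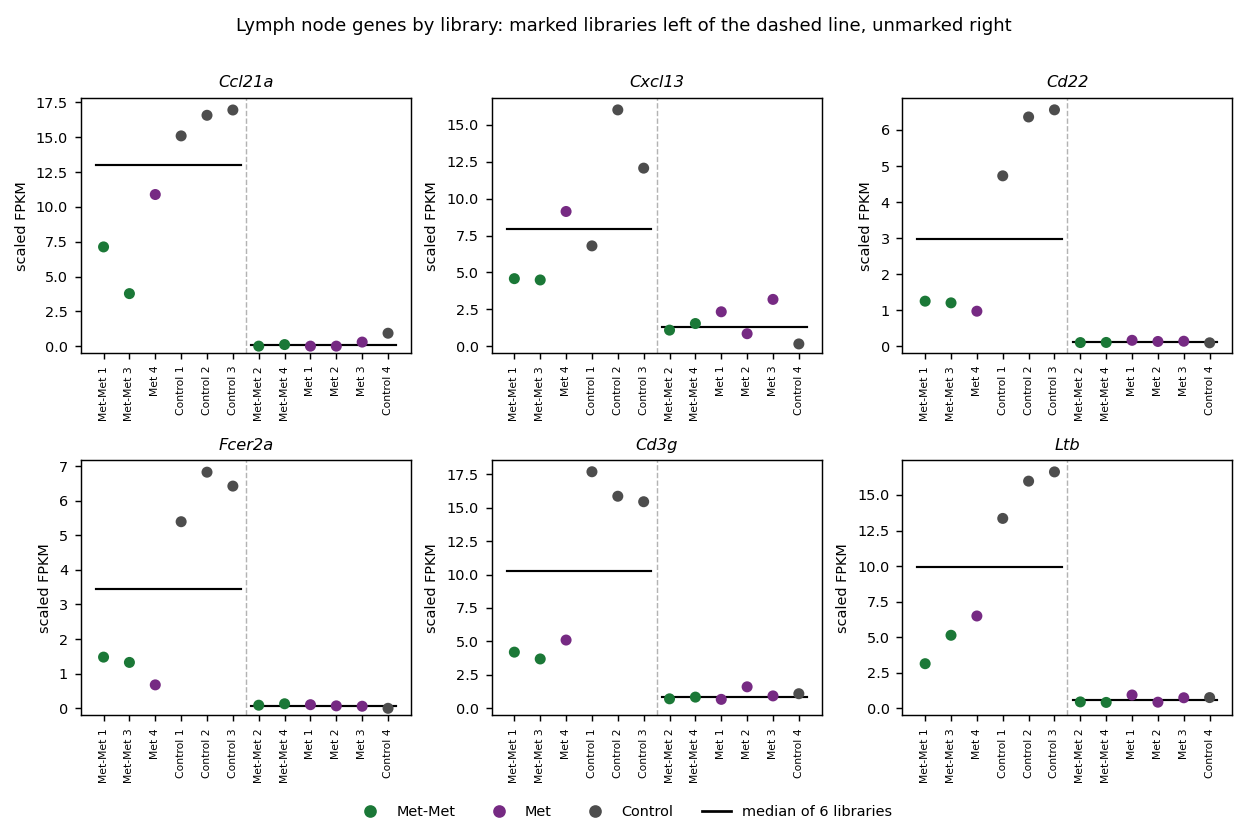
Scaled FPKM of 6 lymph node genes (vertical axes, linear) in each of the 12 libraries (horizontal axes), with marked libraries left of the dashed line, unmarked ones right of it, colours for diet group and a black line at the median of each set of 6. Marked Control libraries were mostly the highest, at 15.1 to 17.0 FPKM for Ccl21a, and marked Met-Met and Met libraries stood mostly between them and the unmarked ones.

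A gene was called when its difference was at least 2-fold and marked and unmarked libraries did not overlap within any diet group. By this rule 109 of 11776 tested genes (0.926%) were higher in marked libraries and 6 (0.051%) were lower. The median difference of all tested genes was −0.0036. Since the rule that split the libraries used these values, nothing is read from the counts themselves. Of the 109, 61 belonged to the 23 lists of lymphoid and immune genes and 48 to none of them. Arhgap4 (1.00), Zap70 (1.01) and Fyb (1.02) were just past the threshold, and Napsa (0.99), Itgal (0.98) and Klhl6 (0.97) just short of it. A further 14 tested genes were 2-fold higher and 9 were 2-fold lower with overlapping libraries. Without Control 4, the only unmarked Control library, 56 genes were called higher, since the Control group then adds nothing to the difference.

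**Figure D2:**
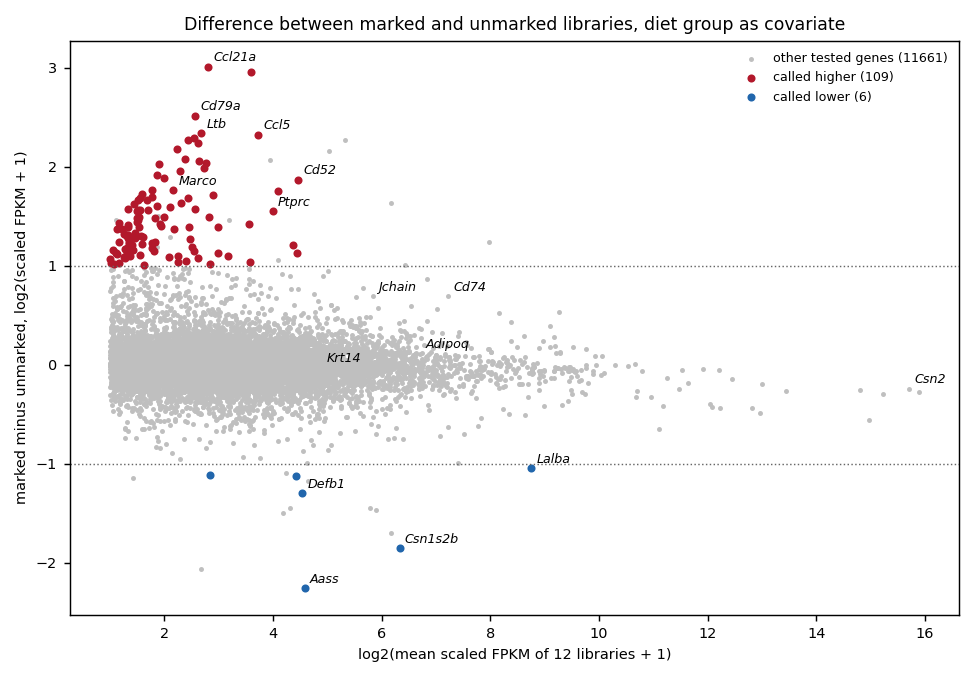
Marked minus unmarked difference (vertical axis, log2 units) against mean level over 12 libraries (horizontal axis, log2 units) for 11776 tested genes, with 109 called higher in red, 6 called lower in blue and dotted lines at 2-fold. The called higher genes lie at low to middle levels, and milk protein genes at the right lie near or below 0.

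B cell genes were higher in marked libraries nearly throughout. Of the 22 records of the B cell list found in the table, 20 were higher without overlap in any diet group, against 3.39% of all 21956 genes. The same 3.39% is the share for every list count of separated and higher genes below. The median difference of the B cell list was 1.33. The list holds Cd22 and Fcer2a, which set the split; without them 18 of 20 were, with a median of 1.25. The summed level of all 22 records, Cd22 and Fcer2a included, was 31.3, 66.3 and 145 FPKM in marked libraries (lowest, median, highest). In unmarked ones it was 4.30, 6.15 and 8.92. In such bulk RNA, fewer cells of a type and less RNA per cell cannot be told apart. Cd79a, which encodes a signalling chain of the B cell receptor, stood at 3.25, 8.24 and 18.1 FPKM in marked and at 0.0361, 0.235 and 0.641 in unmarked libraries (2.51, SE 0.36). Its partner chain Cd79b differed by 2.08 (SE 0.36), and Ms4a1, which encodes CD20, by 2.02 (SE 0.30). Fcmr, an Fc receptor for IgM, was at least 1.37 FPKM in marked and at most 0.194 in unmarked libraries. Cd72 and Pou2af1 overlapped. The coactivator Pou2af1 reached 2.85 FPKM in unmarked Met 3, above 2.08 in marked Met 4. The immunoglobulin genes Ighm and Ighd had no record. In B cell receptor signalling, 8 of 16 genes were separated and higher, and none reached 2-fold. The kinase subunit Pik3cd differed by 0.95 (SE 0.17).

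T cell genes were also higher in marked libraries. In the T cell list 18 of 20 records were separated and higher, with a median difference of 1.45. Without Cd3g, which set the split, the values were 17 of 19 and 1.43. The sum of all 20, Cd3g included, was 44.6, 103 and 156 FPKM in marked and 11.5, 14.8 and 21.7 in unmarked libraries. Cd3e, a second chain of the receptor complex, stood at 3.85, 9.66 and 15.7 FPKM against 0.323, 0.577 and 1.18 (2.24, SE 0.26). Ms4a4b differed by 2.27, the adhesion receptor Cd2 by 2.18, the transcription factor Tcf7 by 2.04 and the interleukin 7 receptor Il7r by 1.89. Icos and Thy1 overlapped, and Thy1 was at 17.4 FPKM in unmarked Met-Met 4, above 10.3 to 15.5 in marked Met-Met and Met libraries. In T cell receptor signalling 11 of 14 genes were separated and higher, with Lck, the first kinase of the cascade (1.96), the adaptor Lat (1.77) and Skap1 (1.66) among them. Among regulatory and follicular helper T cell genes 5 of 9 were. Foxp3, the regulator of regulatory T cells, was at 0.0830, 0.457 and 0.677 FPKM in marked and at most 0.0183 in unmarked libraries.

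Genes for lymphocyte entry and positioning were higher too. Of 12 homing receptors 10 were separated, among them Ccr7, the receptor for Ccl21 (1.10, 5.32 and 8.51 FPKM in marked libraries, against 0.0396, 0.0874 and 0.211 in unmarked ones; 1.91, SE 0.27). The integrin chain Itgb7 (1.49) and Cxcr5, the receptor for Cxcl13 (1.21), were separated too. Of the stromal list, 7 of 16 records were separated, among them Cxcl13 and 3 records of the Ccl21 family, the genes that mark the split. Without these genes 3 of 9 were separated, the growth factor antagonist Grem1 and the survival factors Il7 and Tnfsf13b, and none of them reached 2-fold. These family members are near-identical copies, so how reads were shared between their records is uncertain. The second Ccl21a record stood at 8.47, 21.7 and 30.9 FPKM in marked and at 0.0711, 1.14 and 3.23 in unmarked libraries. Gm10591 (1.56) and Gm13304 (1.55), which carry Ccl21 synonyms in RefSeq, were called too. Ccl19 was listed at 0 in all 6 unmarked libraries and in Met-Met 1 and Met-Met 3, and at 0.412 to 0.669 FPKM in the other 4 marked ones. Ltb, a lymphotoxin chain needed to form nodes, stood at 3.14, 9.92 and 16.6 FPKM against 0.414, 0.595 and 0.935 (2.33, SE 0.24). Its partner Lta stayed at or under 1.25 FPKM and was separated. Of 16 genes of the lymphotoxin and noncanonical NF-kB list 5 were separated and higher, against 3.39% of all genes. The receptor Ltbr (−0.04), Relb (−0.07) and Nfkb2 (0.10) were not separated.

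Follicular dendritic, venule and lymphatic genes followed the split only in part. Against 3.39% of all genes, 3 of 8 follicular dendritic genes were separated and higher: the split marker Cxcl13, Cr2 (1.02, 2.33 and 5.88 FPKM against at most 0.0440), which B cells also express, and Enpp2, which makes lysophosphatidic acid. For high endothelial venules 2 of 11 were, against the same 3.39%, the sulfotransferase Chst4 (0.464, 0.674 and 1.11 FPKM in marked and at most 0.147 in unmarked libraries) and the fucosyltransferase Fut7 (0.190, 0.464 and 0.957 against at most 0.0781). Both modify the sugars of these venules. Glycam1, a venule glycoprotein that the gland also makes as a milk protein, stood at 14258, 34629 and 44893 FPKM in marked and at 34140, 43144 and 60552 in unmarked libraries and overlapped, as did Madcam1. Of 12 lymphatic endothelial genes 1 was separated, the scavenger receptor Stab2.

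Of 8 sinus macrophage genes 4 were separated and higher, against 3.39% of all genes: Marco, Cd209b, Timd4 and Spic. Siglec1, Cd5l, Vsig4 and Cd209d overlapped. Marco, a scavenger receptor, was at 1.72, 3.42 and 24.1 FPKM in marked and at 0.0931, 0.180 and 0.762 in unmarked libraries (1.76, SE 0.51), with the highest value in Control 3. Cd209b and Timd4 were also highest there, at 28.8 and 16.0 FPKM. None of the 11 general macrophage genes was separated, and Cd14 overlapped at 32.9, 51.3 and 80.1 FPKM against 61.3 to 131. Of 15 dendritic cell genes 5 were separated and higher, against 3.39% of all genes. The chemokine Ccl22 led them at 0.672, 3.19 and 5.66 FPKM in marked and at most 0.145 in unmarked libraries.

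Broad leukocyte genes moved with the lymphocytes. In the pan-leukocyte list 12 of 14 were separated and higher, with Cd52 at 16.1, 34.6 and 57.1 FPKM against 5.499, 5.91 and 7.37, and Ptprc, which encodes CD45, at 10.4, 24.9 and 42.2 FPKM against 3.59, 4.95 and 5.89. Cytip went the other way, at 27.1 to 61.5 FPKM in marked and 39.8 to 119 in unmarked libraries, separated within each diet group (−0.70). Of MHC class II genes 9 of 10 were separated. Cd74, the class II invariant chain, stood at 106.6, 192.5 and 341.9 FPKM against 65.9, 85.8 and 138.1, a difference short of 2-fold. H2-Eb1 overlapped, with 30.9, 18.4 and 11.4 FPKM in marked Control 3, Met-Met 1 and Met 4, 12.6 and 15.4 in unmarked Met 1 and Met 2, and at most 2.30 in the other 7.

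No gene was separated and higher in the lists of germinal centre (9 genes), plasma cells (8), mast cells (8) or neutrophils (9). Jchain, which joins secreted antibodies, was highest in unmarked Met 3 at 191.8 FPKM, and ranged over 25.2, 41.9 and 91.9 in marked and 6.70, 40.9 and 191.8 in unmarked libraries. Of 10 NK and cytotoxic genes 4 were separated and higher, against 3.39% of all genes. Ccl5 stood at 4.93, 21.9 and 39.3 FPKM in marked and at 1.01, 1.96 and 5.53 in unmarked libraries (2.32, SE 0.43). Gzma and Gzmb, granule proteases, were highest in unmarked Met 2, at 13.0 and 9.14 FPKM, and Gzmb was lower in marked libraries within each diet group (−0.42), as were 1.61% of all genes.

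Among genes of the gland itself, no member was separated and higher in the lists of luminal epithelium (11 genes), myoepithelium (10), adipocytes (12), fibroblasts and matrix (12), blood endothelium (10) or milk proteins (13). Their median differences lay between −0.28 for milk proteins and 0.10 for adipocytes. Wap, a whey protein, stood at 9789, 23107 and 35024 FPKM in marked and at 24145, 35942 and 61303 in unmarked libraries. Adipoq, the adipocyte hormone, stood at 45.3, 118.4 and 189 FPKM against 26.1, 82.9 and 162. Of 14 cell division genes 2 were separated and higher, against 3.39% of all genes, the replication factors Mcm5 and Pcna. Both were highest in Met-Met 3, at 17.3 and 42.7 FPKM. Mki67, a protein of dividing cells, overlapped at 10.4, 18.9 and 21.9 FPKM against 7.31, 11.96 and 20.5.

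**Figure D3:**
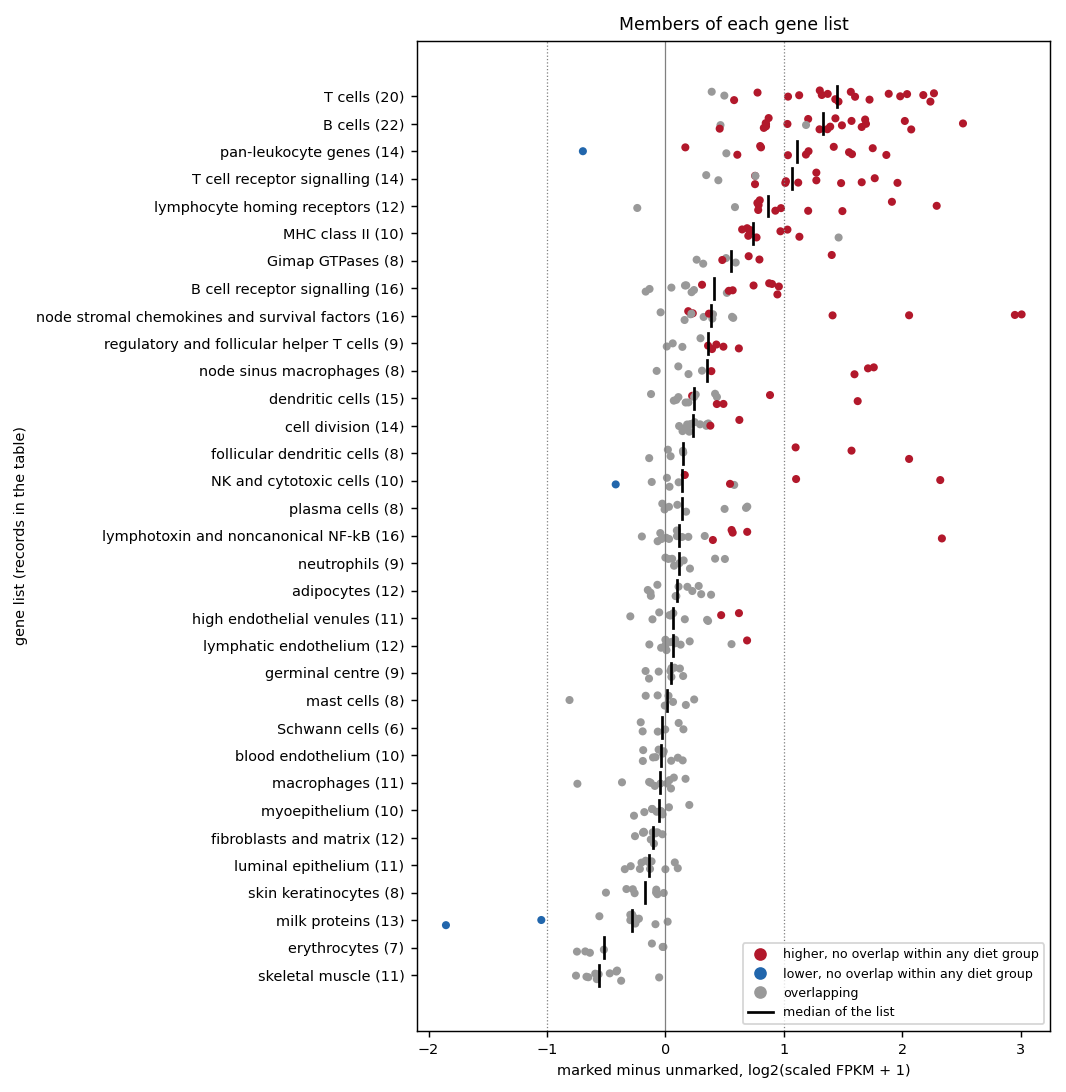
Marked minus unmarked difference (horizontal axis, log2 units) of each member of 33 gene lists (rows, with the number of records), red where higher and blue where lower without overlap in any diet group, grey where overlapping, with a black bar at the list median and dotted lines at 2-fold. T cell (1.45), B cell (1.33) and pan-leukocyte lists (1.11) had the highest medians, and lists of gland cells lay around 0.

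The following of the 48 called higher genes in no list were named after their values were seen. Among them were Ptprcap (1.68), which binds CD45, the lymphocyte transcription factor Ikzf3 (1.48), the checkpoint receptor Btla (1.39), the shared cytokine receptor chain Il2rg (1.39), Cd27 (1.31) and Ccr6 (1.06). Il22ra2, a soluble receptor of interleukin 22, was at 0.390 to 4.84 FPKM in marked and at most 0.144 in unmarked libraries. Pla2g2d, a secreted phospholipase, was at 0.985 to 4.86 FPKM against at most 0.297. Ly6d (1.63) reached 2.92 and 5.29 FPKM in unmarked Met 2 and Met 3. The lysozyme Lyz1 (1.39), the protease inhibitor Serpina1b (1.18) and the dynein chain Dnah8 (1.17) were also in no list.

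The 6 genes lower in marked libraries held 2 milk genes. Csn1s2b, a casein, stood at 17.0, 27.3 and 41.0 FPKM in marked and at 58.2, 122 and 250 in unmarked libraries (−1.85, SE 0.42), with no overlap over all 12 libraries. Lalba, the lactose synthase subunit alpha-lactalbumin, stood at 46.5 FPKM in marked Met 4 against 71.7 to 250 in unmarked Met libraries, at 674 and 529 in marked Met-Met libraries against 820 and 1397, and at 193 to 367 in marked Control libraries against 460 in Control 4 (−1.05, SE 0.36). Without the diet covariate its difference was −0.37, and it was also short of 2-fold on FPKM as deposited (−0.93), after quantile normalization (−0.99), and without Met 3 (−0.91), Met 4 (−0.86) or Met-Met 4 (−0.96). Aass, which starts lysine breakdown, stood at 101.1 FPKM in unmarked Control 4 and 99.6 in unmarked Met-Met 4, and at 3.18 to 13.0 in the other 10 libraries (−2.26, SE 0.76). The difference was −1.46 without Control 4, −1.78 without Met-Met 4, and −3.92 without Met 3, Met 4 and Met-Met 2, the 3 libraries with high Gm26917. Defb1, a defensin, stood at 2.69, 8.199 and 17.6 FPKM against 11.5, 32.0 and 59.2 (−1.30, SE 0.37). It was −0.98 without Met 3, Met 4 and Met-Met 2. Sectm1b (−1.11, and −0.86 without Met 4) and 1600014C10Rik (−1.13) completed the group.

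**Figure D4:**
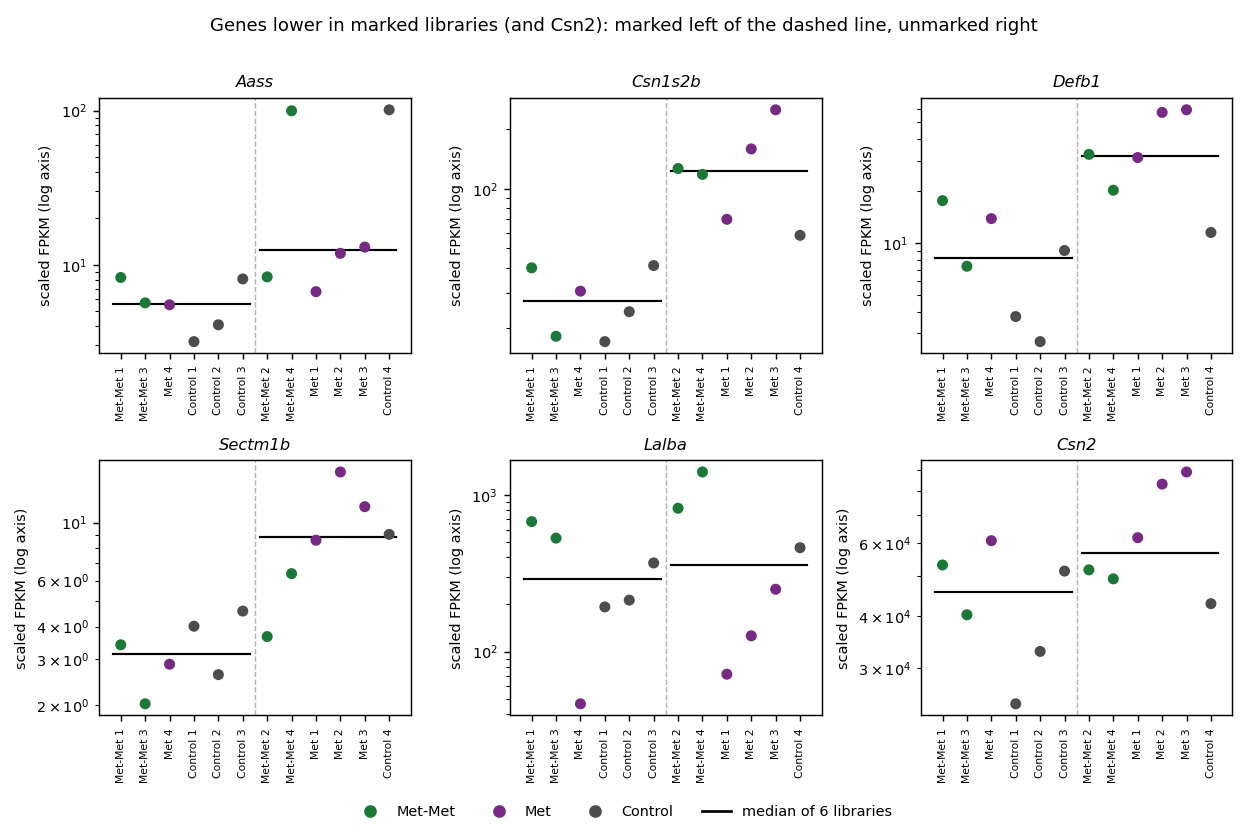
Scaled FPKM (vertical axes, log scale) of 5 genes lower in marked libraries and of Csn2, in each of the 12 libraries (horizontal axes), with marked libraries left and unmarked right of the dashed line, colours for diet group and a black line at each median. Aass near 100 FPKM is seen in Met-Met 4 and Control 4 alone, and Csn2 overlaps between the sets.

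Long noncoding RNAs were read in their own tables. Among 872 tested annotated genes, 5 were called higher (0.573%) and 1 lower (0.115%), and among 400 tested assembled genes without annotation 0 were called higher (0%) and 1 lower (0.25%). 2010016I18Rik was at 0.731 to 3.94 FPKM in marked and at most 0.664 in unmarked libraries (1.49, SE 0.32). Gm45552, an antisense RNA, was at 0.6496 to 4.70 FPKM against at most 0.363 (1.48, SE 0.36). Strand-specific counting is not stated, so its reads cannot be told apart from those of the gene on the other strand. A130071D04Rik (1.26), BE692007 (1.09) and A530030E21Rik (1.04) were the others, and Gm37376 was lower (−1.20). The assembled gene called lower, XLOC_042551, stood at 4.17 to 5.19 FPKM in unmarked Met 1, Met 2 and Met 3 and at most 0.862 in the other 9 libraries.

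The amount of lymphoid RNA was not equal among marked libraries. Above the mean of the unmarked libraries of the same diet group, the B cell list summed to 24.7 and 25.8 FPKM in Met-Met 1 and 3, to 28.1 in Met 4, and to 92.3, 131 and 139 in Control 1, 2 and 3. The T cell list gave 32.3 and 25.0 FPKM in Met-Met 1 and 3, 44.2 in Met 4, and 135, 136 and 130 in Control 1, 2 and 3. All marked Control libraries were thus above all other marked ones. Of the 109 called higher genes, 107 were lower without overlap in the 3 marked Met-Met and Met libraries than in the 3 marked Control libraries, against 21% of all tested genes, and the median ratio of means was 0.305. This comparison was chosen after the data were seen, and the 109 genes were chosen on these same libraries. Marked Control libraries against Control 4 carried part of that choice, since 56 genes were called higher without Control 4. The count of 107 is therefore not independent of the choice, and nothing is read from it.

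The ratio of T to B cell RNA varied less than the amount of either. Per FPKM of the B cell list (without Cd22 and Fcer2a), the T cell list (without Cd3g and Thy1) gave 1.3 and 0.974 in Met-Met 1 and 3, 1.34 in Met 4, and 1.32, 0.977 and 0.859 in Control 1, 2 and 3. Met-Met and Control overlapped in this ratio, and Met 4, the single marked Met library, was above both by little. The Ccl21 records gave 0.921 and 0.552 in Met-Met 1 and 3, 1.11 in Met 4, and 0.490, 0.432 and 0.397 in Control 1, 2 and 3. Here all 3 marked Met-Met and Met libraries were above the 3 Control ones. Ccl21a itself set the split and Met is a single library here, so no diet effect is read from this order. Marco gave 0.190 in Control 3 and 0.0458 to 0.0762 in the other 5.

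Marked libraries numbered 2 of 4 in Met-Met, 1 of 4 in Met and 3 of 4 in Control. Fisher's exact test, two-sided, gave p = 0.486 for Met against Control and p = 1 for both other pairs (adjusted p = 1 for each over 3 pairs). With these totals the smallest p possible was 0.0286 for Met against Control and 0.143 for the others.

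The diet comparisons were fitted with limma over all 12 libraries, and a gene was called at a Benjamini-Hochberg adjusted p under 0.05. Met-Met and Met share the Control libraries as their comparator. Of the 109 genes, 99 fell in Met-Met against Control with the marked indicator as a covariate, where 11.8% of all tested genes fell, and 8 fell without it, where 9.82% did. In Met against Control 45 fell with it (12.4% of all) and 47 without it (14.9%). In Met-Met against Met 2 fell with it, Enpp2 and Gimap3 (5.23% of all), and 0 without it by limma (5.99%), where also 0 had an unadjusted p under 0.05. The 109 genes were chosen on these libraries for following the same split, so their counts are not independent evidence. Without Cxcl13, Cd22, Fcer2a, Cd3g and the records named Ccl21, 93 of 102 fell in Met-Met with the covariate and 8 without it, and 40 and 45 in Met. The 102 still hold Gm10591 and Gm13304, which carry Ccl21 synonyms. The covariate itself was set from B and T cell marker RNA, so these tests are not independent of the split.

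Among B cell genes without Cd22 and Fcer2a, 12 of 16 tested fell in Met-Met and 8 of 16 in Met with the covariate, against 3 and 8 without it. Of T cell genes without Cd3g, 14 of 15 fell in Met-Met and 9 of 15 in Met, against 0 and 7 without the covariate. Of all tested genes, 11.8% fell in Met-Met and 12.4% in Met with the covariate, and 9.82% and 14.9% without it. Tcf7 averaged 2.67 ± 2.30 FPKM in Met-Met and 12.4 ± 7.43 in Control (SD, n = 4 each), and its log2 fold change was −1.23 (SE 0.22, limma adjusted p = 0.00401) with the covariate and −1.74 (adjusted p = 0.0949) without it. Ccr7 averaged 0.961 ± 1.16 FPKM in Met-Met and 6.25 ± 4.03 in Control, with −1.21 (adjusted p = 0.0108) and −1.69 (adjusted p = 0.0948). Both fell in Met-Met with the covariate and did not pass the test without it. Both were called higher in marked libraries on these same values, and the covariate marks presence of lymphoid RNA, not its amount. Their p-values are therefore not independent of the split, and no diet effect is read from them. The list counts above share this limit. In Met, Fcmr averaged 0.389 ± 0.675 FPKM, against 5.98 ± 4.09 in Control, with −1.20 (adjusted p = 0.0191) and −2.05 (adjusted p = 0.0277). Fcmr was called higher in marked libraries too, so the same limit holds for it. Cd74, which many cells express, fell under both fits, at 99.8 ± 29.7 FPKM in Met-Met and 95.4 ± 19.1 in Met, against 250.6 ± 84.7 in Control (adjusted p = 0.00236 and 0.00433 with the covariate). Its values within the unmarked libraries were 65.9 and 89.8 in Met-Met, 76.6 to 107 in Met and 138 in Control 4.

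These calls depended on how the lymphoid RNA was entered in the fit. The B cell list mean as a covariate follows the amount of this RNA and not only its presence. With it, 0 of the 109 genes fell in Met-Met against Control (5.45% of all) and 0 in Met against Control (6.04%) by limma. In each, 7 had an unadjusted p under 0.05. That mean holds 13 of the 109 genes, Cd22 and Fcer2a among them, and the others were chosen for following the same split. A low count was therefore largely set in advance, and nothing is read from it. In that fit Cxcl13 was higher in both. Its log2 fold change was 1.01 in Met-Met, where 5.43% of all tested genes were called higher. In Met it was 1.52, where 4.70% were. Gimap3 was higher in Met too (0.71). Cxcl13 is itself a split marker, Gimap3 is among the 109 genes, and the covariate holds the split markers Cd22 and Fcer2a. These values are therefore not independent of the split, and no diet effect is read from them. Within the 6 marked libraries alone, 101 of the 109 fell in Met-Met (8.11% of all) and 79 in Met (6.11%), where Met is 1 library assumed to vary like the others. Within the 6 unmarked libraries alone, 0 fell in Met-Met (0.00849% of all) and 0 in Met (0.017%) by limma, with 5 and 4 at an unadjusted p under 0.05, and Control was 1 library. These fits rest on an arm of 1 library and are given as values only. The median log2 fold change of the 109 genes was −1.42 in Met-Met and −1.16 in Met within marked libraries, and −0.04 and 0.0019 within unmarked ones.

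**Figure D5:**
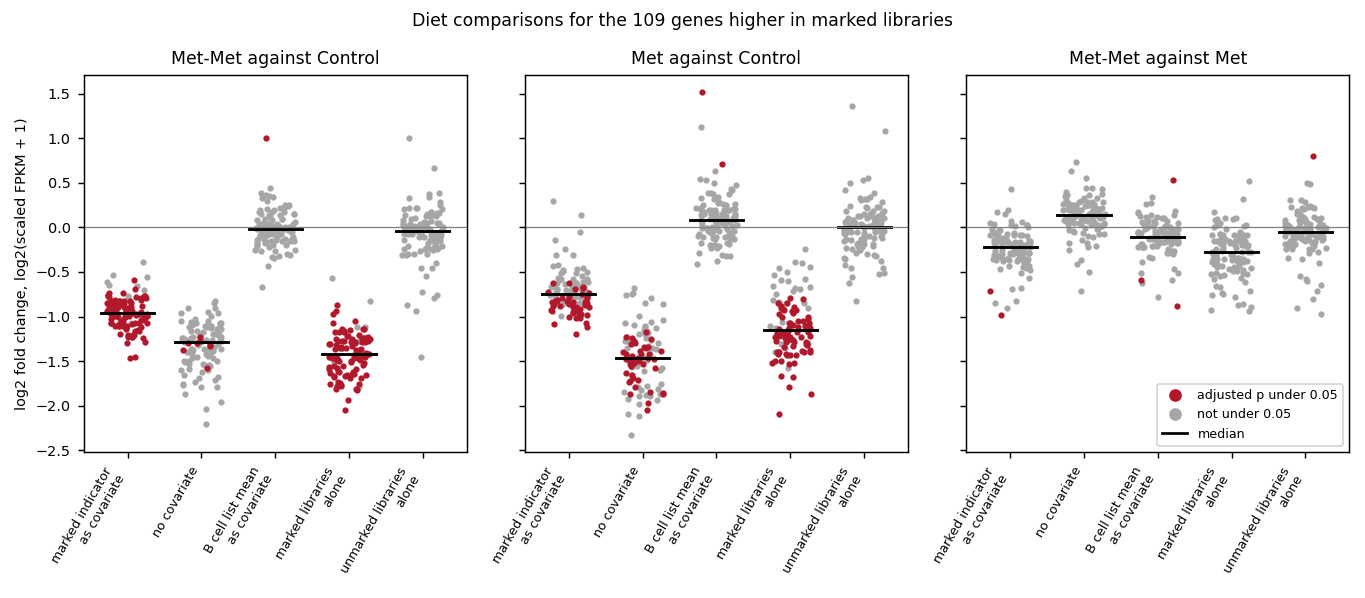
Log2 fold change (vertical axis) of the 109 genes higher in marked libraries, for 3 diet comparisons (panels) under 5 fits (horizontal axis), red at a limma adjusted p under 0.05, with a black bar at the median. Medians are −0.96 and −0.75 for Met-Met and Met against Control with the marked indicator, and −0.02 and 0.09 with the B cell list mean as covariate. In the fits of marked or unmarked libraries alone, Met or Control is a single library, so colours there are not read.

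The marked indicator also changed calls over all genes. In Met against Control 2737 genes were called with it and 3318 without it, 2506 of them by both. In Met-Met against Control the counts were 2749 and 2406, with 2284 by both, and in Met-Met against Met 1275 and 1399, with 1171 by both. No gene called by both turned its direction.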

How the data were processed

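RNA of mammary gland was measured in 12 libraries, 4 per diet group. The authors deposited FPKM per transcript for protein-coding genes and for annotated and assembled long noncoding RNAs, and StringTie 1.3.1, Bowtie2 2.2.8 and HISAT2 2.0.4 were used on mm9 and GRCm38, per the submitters' processing notes, which give no role for each. Counting strand is not given in the sources used here. FPKM of 55869 transcripts were summed to 21956 genes and divided by 1 factor per library (0.831 to 1.22), the median ratio over 11758 genes. The 11776 genes averaging 1 FPKM or more were analysed on log2(scaled FPKM + 1); long noncoding RNAs used 0.5 for both. The marked against unmarked difference came from a linear model with diet group. Diet comparisons used limma 3.58.1 (R 4.3.3) with an intensity trend, the marked indicator and Benjamini-Hochberg adjustment. They were tried on simulated data for Met against Control over 11776 genes. There 83.4% of genes changed by 1 log2 unit, 37% of those changed by 0.5 and 3.2% of those changed by 0.25 were recovered. Of the simulated calls, 5.21% were false. Noise was drawn independently for each gene, and the marked effect of a gene was equal in all marked libraries. The real marked libraries differed in amount of lymphoid RNA, so these shares may not hold for them. Tables and figures used Python 3.11.15, numpy 2.4.6, pandas 2.3.3 and matplotlib 3.10.9. The marked libraries and the 34 gene lists were chosen with earlier results of these data known. Named genes are the 20 highest and 10 lowest called differences with a proper symbol, up to 4 members per list with the largest absolute difference, a fixed set of node and gland genes, the lncRNAs called, and, per diet comparison, up to 4 called members per lymphoid list; members named for overlapping or for lying outside the lists were chosen after their values were seen. Alternatives changed the scaling, pseudocount, filter, covariate, replicate block and libraries used. FPKM hold no depth, so no counting error can be given. Some genes that this rule names are not reported here.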

Additional observations from a re-analysis of the deposited data

Results flagged for a closer look

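Within each diet group of 4 libraries, list means and single genes were searched for 1 library far from the other 3, by its gap to the nearest divided by the range of the group. Of 159 groups tested, 33 passed Dixon's critical value for 4 libraries, and chance flags about 1 in 20 groups. The groups share libraries and genes, so the 33 are not independent.

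Met 4, the marked library among 3 unmarked ones, was the far and highest one in Met for the split markers (0.961), B cells (0.831), T cells (0.94), regulatory and follicular helper T cells (0.97), homing receptors (0.872), node stromal chemokines (0.912), dendritic cells (0.962) and T cell receptor signalling (0.838). It was so for Cd22 (0.95), Fcer2a (0.91), Ccl21a (0.897), Ccl19 (1), Cr2 (0.966) and Ccr7 (0.967). Control 4, the unmarked library among 3 marked ones, was the far and lowest one in Control for the split markers (0.895), T cells (0.944), homing receptors (0.964), pan-leukocyte genes (0.882), Gimap GTPases (0.86), the lymphotoxin list (0.842) and T cell receptor signalling (0.936). The single genes were Cd22 (0.857), Fcer2a (0.902), Cd3g (0.942), Ccl21a (0.951), Ltb (0.911) and Ccr7 (0.978). In all 27 the far library is the one whose marking differs from the rest of its group, and since the split was set from such genes, these values restate it.

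The other 6 do not involve lymphoid genes. Skeletal muscle genes were far higher in Met 2 (0.989) and Met-Met 4 (0.87), and skin keratinocyte genes in Met 2 (0.931). Met-Met 1 was the lowest for myoepithelium (0.948), Met-Met 3 for Wap (0.836) and Control 1 for Mki67 (0.887).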

How the results depend on the processing

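FPKM hold no depth, so low genes limit these results. The number of genes higher in marked libraries was 178 with a pseudocount of 0.1 and 22 among genes averaging 5 FPKM or more, and 56 (without Control 4) to 135 (without Met 4) when 1 library was left out. The number lower was 11 with the pseudocount of 0.1, 15 without the 3 libraries with high Gm26917, and 4 to 10 leaving out 1 library. Annotated lncRNAs higher numbered 3 with a minimum mean of 1 FPKM, 2 with a pseudocount of 1, and 1 (without Control 4) to 7 leaving out 1 library; those lower, 1 to 4. Assembled lncRNAs higher ranged over 0 to 4, and those lower over 0 to 4, with 0 at a pseudocount of 1.

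With the B cell list mean as covariate, diet calls numbered 1264 in Met against Control and 1282 in Met-Met against Control. In the 6 marked libraries alone they were 1192, 1680 and 24 (Met-Met against Met), and in the 6 unmarked alone 7, 3 and 484, with fewer libraries in each. Met-Met against Met had 846 calls with no filter. Leaving out 1 library gave 1790 (without Met 4) to 2711 in Met against Control, 1720 (without Control 1) to 2887 in Met-Met against Control and 457 (without Met-Met 4) to 1542 in Met-Met against Met. Residual correlations were −0.30 to 0.44 between libraries of the same replicate number (4 of 12 above 0.1) and −0.38 to 0.41 between other numbers (10 of 36). These values cannot settle whether replicate numbers paired the samples. With the replicate block the calls were 1859, 2097 and 691. On FPKM as deposited, higher and lower calls split 344 to 3214, 650 to 1735 and 1355 to 274, and the median of all genes moved to −0.21, −0.10 and 0.12.

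With the B cell covariate the sign turned in Met against Control for Ccl21a (0.38), Cd3g (0.090) and Tcf7 (0.13), and in Met-Met against Control for Ccl21a (0.34), Ccl5 (0.013) and Ltb (0.17). In unmarked libraries alone it turned for Fcer2a (0.11) and Cd22 (0.064) in Met and Cd22 (0.011) in Met-Met against Control. Both genes are split markers, and in unmarked libraries Cd22 was at most 0.161 and Fcer2a at most 0.131 FPKM. Control is 1 library there, so no reversal is read from these values. The cause was not tested. Of the other single-gene values, 240 diet values kept direction and call and 91 lost the call; 822 marked against unmarked differences stayed within 1 SD, 77 moved and 0 reversed.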

Other observations

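These genes were chosen after their values were seen and lie outside the gene lists of the comparisons. Angptl4, a lipase inhibitor, stood at 13.1 to 19.3 FPKM in the 4 Met-Met libraries, at 45.0, 151.7 and 108.2 in Met 1, 2 and 3 but 5.52 in Met 4, and at 32.9, 21.5, 102.1 and 118.3 in Control 1 to 4. Pdk4, a kinase that restrains glucose oxidation, stood at 4.35 to 7.40 FPKM in Met-Met, at 19.4 to 50.1 in Met 1, 2 and 3, at 2.75 in Met 4, and at 38.5 and 38.3 in Control 3 and 4 against 10.8 and 8.24 in Control 1 and 2. Saa2, an acute-phase protein, was highest in Met-Met 4 at 501.5 FPKM, against 35.4 to 132.8 in the other Met-Met libraries and at most 42.4 elsewhere.

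Other genes differed greatly between libraries. Sumo2 stood at 1.88 to 2.30 FPKM in Met 1, Met 3 and Control 4 and at 26.9 to 73.4 in the other 9. Rpl26 stood at 398.1 and 441.2 FPKM in Control 1 and 3 and at 11.9 to 27.2 in the other 10. Hist2h2aa1 stood at 0.232 to 0.307 FPKM in Met-Met 4, Control 2 and Control 4 and at 23.8 to 57.9 elsewhere.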
